A study of Mus musculus with 12 samples.

Results

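The 10 genes described here encode parts of the machinery that moves lytic granules to the immune synapse and fuses them with the plasma membrane: Rab27a, the synaptotagmin-like genes Sytl1, Sytl2 and Sytl3, Unc13d, Stx11, Stxbp2, Vamp7, Vamp8 and Lyst. They were taken by name for their roles, with earlier results of these data known, and all 10 of the 22180 genes with a uniquely annotated probe set on the array were found, each through 1 probe set with a single gene symbol. Sytl3 has 1 further probe set that is listed with several genes and was not used. All 10 genes passed the filter on dim genes, which asked for at least 1 group mean of 5 or more on the log2 scale.

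Expression was measured on 12 Affymetrix arrays of mouse splenic CD8 T cells, 3 arrays in each of 4 groups. Tc1 cells had been cultured with IL-12 and Tc17 cells with IL-6 and TGF-beta. Each fate came in a wild-type (WT) form and in a STAT3-/- form, in which a Cd4-driven Cre recombinase acts on a floxed Stat3 allele in T cells. IL-6 acts on cells through STAT3, a transcription factor. In all 4 groups naive cells of both genotypes were mixed in equal parts and activated with antibodies to CD3 (1 µg/ml) and to CD28 (3 µg/ml). Cells spent 3 days with the polarising cytokines and 1 day with IL-2, 4 days in all, before the genotypes were sorted apart by allelic markers. The labels give neither the ages of the mice nor the animal or culture behind each replicate. The p-values therefore rest on the spread among these samples alone, and part of that spread may be technical. Each group held biological arrays 1 and 2 and a technical array, which was averaged with biological array 2, so that each group had 2 samples.

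A cytotoxic T cell stores perforin and granzymes in lytic granules and releases them where it touches its target. The small GTPase RAB27A marks mature granules, synaptotagmin-like proteins bind it and help tether granules at the membrane, and MUNC13-4, the product of Unc13d, primes them. Fusion needs SNARE proteins on both membranes, among them syntaxin 11, VAMP7 and VAMP8, with MUNC18-2 (Stxbp2) as the partner of syntaxin 11. Inherited loss of RAB27A, MUNC13-4, syntaxin 11, MUNC18-2 or LYST causes immune deficiency with impaired killing by lymphocytes.

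All values are log2 expression values. Array medians lay between 3.95 and 4.10. Stat3 lay between 9.77 and 10.72 on the WT arrays and between 6.99 and 7.93 on the STAT3-/- arrays, with no overlap in either fate, and in STAT3-/- cells it fell by 2.85 ± 0.18 (SE) in Tc17 (limma, adjusted p = 1.4e-05) and fell by 2.66 ± 0.18 in Tc1 (limma, adjusted p = 0.00029). The technical array of the Tc17 WT group stood apart, with a median correlation of 0.971 with the other arrays, against at least 0.984 for each of the others. The calls that involve Tc17 WT were therefore also made without it. Of 9 CD8 T cell markers 8 were on the array and all 8 passed the filter, with a summed linear level of 11065 to 13528 over the 12 arrays. In Tc17 STAT3-/- against WT, Cd8b1 (0.03), Cd3d (0.08), Cd3e (0.23), Cd3g (0.15), Cd2 (0.06) and Cd28 (-0.28) were not called. Cd8a rose by 0.30 (limma, adjusted p = 0.0446) and Cd5 fell by 0.33 (0.0371). The Cd8a call was lost under 13 of 23 settings, among them without any single sample other than Tc17 WT sample 1 (adjusted p up to 0.253), and the Cd5 call under 12, among them without any single sample of Tc1 WT or Tc17 (up to 0.254). Cd28 was called under 9, among them without Tc17 WT sample 2 (0.0443) or the Tc17 WT technical array (0.0135).

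The promoter sequences of these genes were searched for 2 motifs, because the groups differ in a STAT factor and because T-box factors drive the cytotoxic programme of CD8 T cells. RefSeq windows of assembly GRCm38.p6, from 250 bases before to 50 bases after a transcript start, were at hand for 7 of the 10 genes (8 windows, with a pair for Rab27a). Sytl2, Unc13d and Vamp7 had no window, so their promoters were not searched. The STAT motif TTCNNNGAA, which reads the same on both strands, was found in 3 of the 8 windows (Lyst, Vamp8 and Sytl3), against 8.3% of all 32851 windows. The T-box motif AGGTGTGA, searched on both strands, was found in 1 window, that of Rab27a, against 1.28% of all windows. The matched sites are shown with 10 bases on each side, 5′ to 3′ on the gene's strand, with the motif in capitals. They lie at chr13:13590165-13590193 (+) for Lyst, chr6:72390770-72390798 (-) for Vamp8, chr17:6659021-6659049 (+) for Sytl3 and chr9:73044668-73044695 (+) for Rab27a.
Lyst: aggggtggagTTCAGAGAAgctgcacagg
Vamp8: ctagaattacTTCTTTGAAgcataaaaga
Sytl3: gatgaggcatTTCACCGAAgtctcttatc
Rab27a: tctgtggttcTCACACCTttcagaaggg

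The Lyst and Vamp8 matches begin at positions -234 and -121 from the transcript start and precede the whole annotated gene. The Sytl3 match, at -28, precedes the transcript start but lies within the gene's outer limits. The Rab27a match, at -132, is the reverse complement of the motif as spelled. A match describes letters only, and binding was not measured here. Below are the upstream stretches of Lyst (chr13:13590159-13590310, + strand) and Rab27a (chr9:73044560-73044809, + strand), up to the first base of the annotated gene. These genes are shown because each held a match and its Tc17 WT arrays lay apart from those of all other groups. Those arrays were lowest for Lyst and highest for Rab27a. The Tc17 WT arrays of Sytl1 (lowest) and Stx11 (highest) lay apart too, but the windows of these genes held neither motif. Vamp8 and Sytl3 held a match and were not called between genotypes.
Lyst upstream: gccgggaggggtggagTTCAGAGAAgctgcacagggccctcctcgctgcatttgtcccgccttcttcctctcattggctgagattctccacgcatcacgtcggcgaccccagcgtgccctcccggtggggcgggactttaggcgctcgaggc
Rab27a upstream: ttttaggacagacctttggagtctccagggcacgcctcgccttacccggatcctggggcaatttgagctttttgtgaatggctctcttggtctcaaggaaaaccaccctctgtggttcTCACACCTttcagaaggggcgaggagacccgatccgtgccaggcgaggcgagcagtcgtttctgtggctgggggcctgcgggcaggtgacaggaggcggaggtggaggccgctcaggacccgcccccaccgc

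The 4 genes called higher in Tc17 STAT3-/- than in Tc17 WT cells (limma, adjusted p under 0.05 over 9862 genes) were Sytl2, Lyst, Sytl1 and Vamp7, and the 2 called lower were Stx11 and Rab27a. Sytl3, Unc13d, Stxbp2 and Vamp8 were not called. These 6 of 10 compare with 25.1% of all tested genes (18.2% higher and 6.83% lower). The arrays of the groups did not overlap for 7 of the 10 genes, against 44.3% of all tested genes. The median change of the 10 genes was 0.18 and that of all tested genes 0.11, and the median absolute changes were 0.48 and 0.20. Of the genes called under each scaling, 72.7% were higher as deposited (1799 of 2473), 49.0% with the median of tested genes subtracted from each array, 54.8% with cyclic loess, 60.3% with quantile normalization and 82.5% with the median of all probe sets subtracted. The 6 genes kept their direction under each of these scalings, and 5 of them kept their call under each; the call on Rab27a was lost with the median of all probe sets subtracted (adjusted p = 0.0615). Leaving out STAT3-/- sample 1 or sample 2 of Tc17 lowered the number of the 10 genes called. Without sample 2 the number called over all tested genes fell as well. Without the Tc17 WT technical array the same 6 genes were called, with changes of 1.41 for Sytl2, 0.54 for Lyst, 0.49 for Sytl1, 0.52 for Vamp7, -0.98 for Stx11 and -0.39 for Rab27a. The arrays cannot tell apart fewer cells of a type and less RNA per cell.

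**Figure D1:**
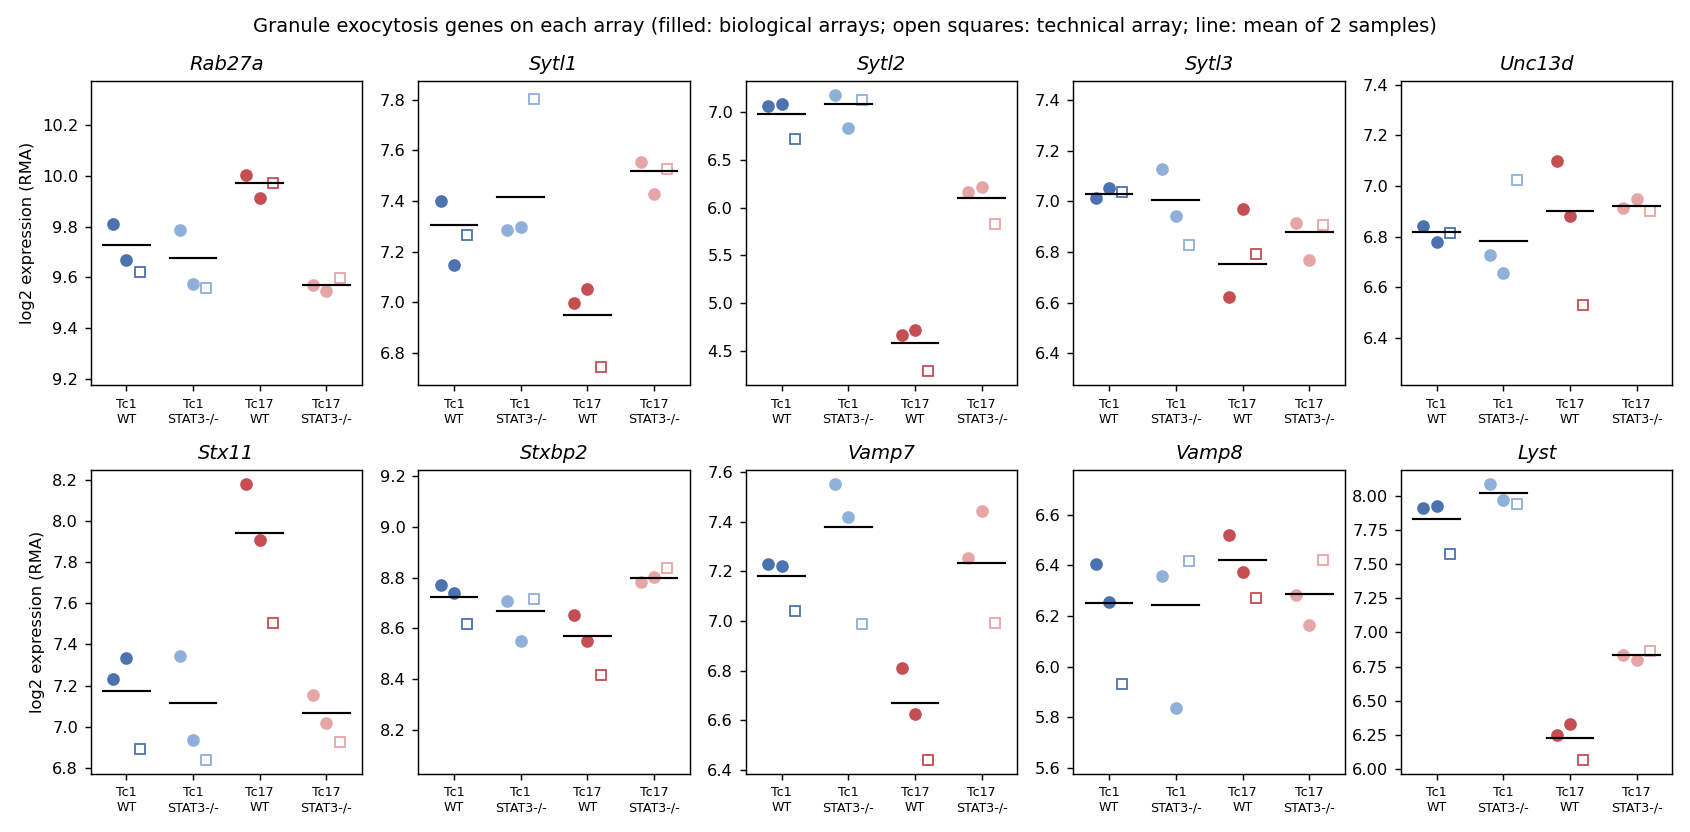
Log2 expression of each of the 10 genes (vertical axis) on every array, in the 4 groups (horizontal axis); points are arrays and the bar is the mean of the 2 samples. Sytl2 and Lyst span the widest range of group means, 2.50 and 1.80, with Tc17 WT lowest for both.

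Rab27a encodes the GTPase that recruits the tethering and priming proteins to the granule. On biological arrays 1 and 2 and the technical array it read 10.01, 9.91 and 9.97 in Tc17 WT and 9.57, 9.54 and 9.60 in Tc17 STAT3-/-. In Tc1 it read 9.81, 9.67 and 9.62 in WT and 9.79, 9.57 and 9.56 in STAT3-/-. Every Tc17 WT array lay above every array of the other groups. The Tc17 STAT3-/- arrays lay below those of Tc1 WT and overlapped those of Tc1 STAT3-/-. Rab27a fell by 0.40 ± 0.11 (SE) in Tc17 STAT3-/- against Tc17 WT, or 1.32-fold (95% interval -0.64 to -0.17; limma, adjusted p = 0.0236), and -0.52 from the median of all tested genes. The call was lost without Tc17 WT sample 1 (adjusted p = 0.0566), without Tc17 STAT3-/- sample 1 (0.121), without Tc17 STAT3-/- sample 2 (0.118) or without the filter on dim genes (0.0598), and the change was -0.34 to -0.53 over 23 settings. In Tc1 the change was -0.05 (95% interval -0.29 to 0.19).

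Of the 3 synaptotagmin-like genes, which encode RAB27-binding tethers, Sytl2 differed most. It read 4.66, 4.72 and 4.28 on the Tc17 WT arrays and 6.17, 6.22 and 5.83 on the Tc17 STAT3-/- arrays. In Tc1 it read 7.07, 7.08 and 6.72 in WT and 7.18, 6.84 and 7.13 in STAT3-/-. The Tc17 WT arrays were lowest, the Tc17 STAT3-/- arrays lay between them and Tc1, and the Tc1 groups overlapped each other. Sytl2 rose by 1.51 ± 0.11 (SE) in Tc17 STAT3-/- over WT, or 2.86-fold (95% interval 1.26 to 1.77; limma, adjusted p = 4.7e-05), 1.40 above the median change. It was called under all 23 settings, with changes of 1.40 to 1.59. Its Tc17 WT mean of 4.58 ± 0.11 (SD, n = 2) lies below the level of 5 used as the filter, where RMA compresses differences, so the fold may be understated.

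Sytl1 read 7.0, 7.05 and 6.75 on the Tc17 WT arrays, below all arrays of the other groups. It read 7.56, 7.43 and 7.53 in Tc17 STAT3-/-, 7.40, 7.15 and 7.27 in Tc1 WT, and 7.29, 7.30 and 7.80 in Tc1 STAT3-/-. The Tc17 STAT3-/- arrays lay above those of Tc1 WT, and both overlapped Tc1 STAT3-/-. Sytl1 rose by 0.57 ± 0.12 (SE) in Tc17 STAT3-/- over WT, or 1.48-fold (limma, adjusted p = 0.00853), 0.45 above the median change. Without Tc17 STAT3-/- sample 1 it was not called (change 0.53, adjusted p = 0.0711). Sytl3, another tether of the family, lay between 6.62 and 7.13 on all 12 arrays, and all neighbouring groups overlapped. Its change in Tc17 was 0.12 ± 0.12 (SE, 95% interval -0.14 to 0.39), which was not called and lay 0.01 from the median of all tested genes.

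Unc13d, the priming factor, lay between 6.53 and 7.10 on all 12 arrays. Its lowest and highest values were both in Tc17 WT, where the arrays read 7.10, 6.88 and 6.53. Its group means spanned 0.14, the narrowest range of the 10 genes. The change in Tc17 was 0.02 ± 0.13 (SE), with a 95% interval from -0.27 to 0.31, and was not called.

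Among the fusion proteins, Stx11 moved in Tc17 and its partner Stxbp2 was not called. Stx11 read 8.18, 7.91 and 7.50 on the Tc17 WT arrays and 7.16, 7.02 and 6.93 on the Tc17 STAT3-/- arrays. In Tc1 it read 7.23, 7.33 and 6.89 in WT and 7.35, 6.94 and 6.84 in STAT3-/-. Tc17 WT lay above all the other arrays, whose groups overlapped. Stx11 fell by 0.88 ± 0.18 (SE) in Tc17 STAT3-/- against WT, or 1.84-fold (95% interval -1.29 to -0.46; limma, adjusted p = 0.00954), -0.99 from the median change. The lowest of the 3 Tc17 WT values, 7.50, was on the technical array that stood apart, and without it the adjusted p was 0.0031. Without Tc17 STAT3-/- sample 2 the change was -0.79 and not called (adjusted p = 0.0724).

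Stxbp2 read 8.65, 8.55 and 8.42 in Tc17 WT and 8.78, 8.80 and 8.84 in Tc17 STAT3-/-. It read 8.77, 8.74 and 8.62 in Tc1 WT and 8.71, 8.55 and 8.72 in Tc1 STAT3-/-. All Tc17 STAT3-/- arrays lay above those of the other groups, with the Tc1 WT arrays nearest. The change in Tc17 was 0.23 ± 0.09 (SE, 95% interval 0.02 to 0.45) and was not called (limma, adjusted p = 0.106). Without Tc17 WT sample 1 it was 0.32 and called (adjusted p = 0.0394).

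The granule SNAREs differed from each other. Vamp7 read 6.81, 6.62 and 6.44 in Tc17 WT, below all arrays of the other groups, and 7.25, 7.44 and 6.99 in Tc17 STAT3-/-. It read 7.23, 7.22 and 7.04 in Tc1 WT and 7.55, 7.42 and 6.99 in Tc1 STAT3-/-, and these 3 groups overlapped. Vamp7 rose by 0.56 ± 0.14 (SE) in Tc17 STAT3-/- over WT, or 1.48-fold (95% interval 0.26 to 0.87; limma, adjusted p = 0.0172), 0.45 above the median change. It was not called without Tc17 WT sample 2 (0.42, adjusted p = 0.0874), Tc17 STAT3-/- sample 1 (0.55, 0.0990) or Tc17 STAT3-/- sample 2 (0.58, 0.0810). Vamp8 lay between 5.84 and 6.52 on all arrays, with overlap between all neighbouring groups. Its change in Tc17 was -0.13 ± 0.13 (SE, 95% interval -0.43 to 0.16) and was not called.

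Lyst encodes the large regulator of lysosome-related organelle size that is mutated in Chediak-Higashi syndrome and in the beige mouse. It read 6.25, 6.33 and 6.07 in Tc17 WT and 6.84, 6.80 and 6.86 in Tc17 STAT3-/-. In Tc1 it read 7.91, 7.92 and 7.58 in WT and 8.09, 7.97 and 7.94 in STAT3-/-. No neighbouring groups overlapped, and the order from high to low was Tc1 STAT3-/-, Tc1 WT, Tc17 STAT3-/- and Tc17 WT. Lyst rose by 0.61 ± 0.10 (SE) in Tc17 STAT3-/- over WT, or 1.52-fold (95% interval 0.39 to 0.83; limma, adjusted p = 0.00265), 0.49 above the median change. It was called under all 23 settings, with changes of 0.48 to 0.67.

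**Figure D2:**
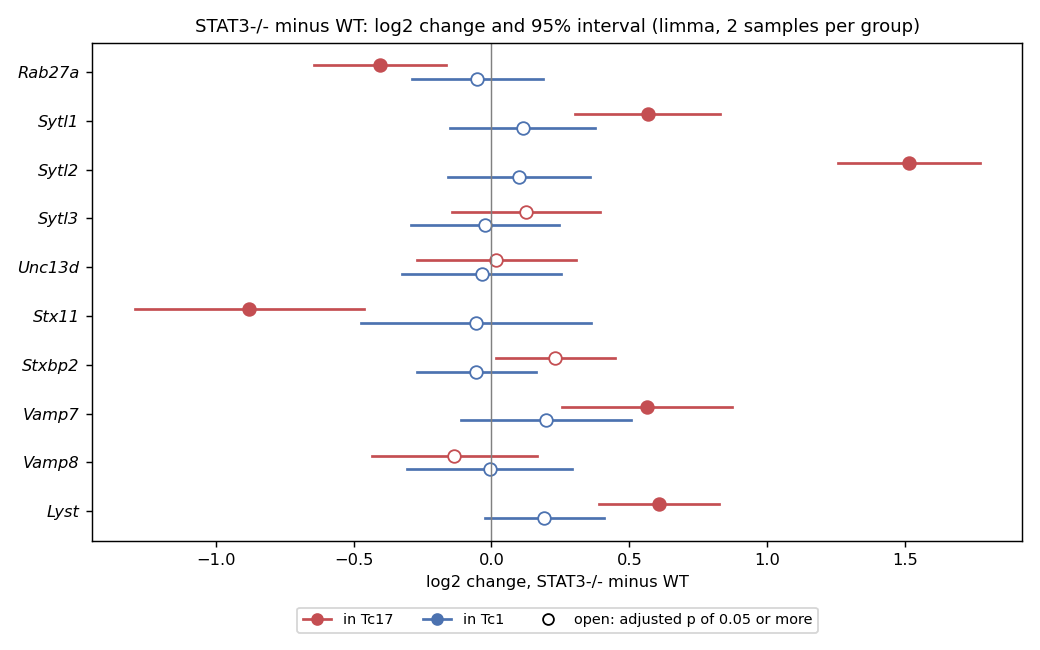
Log2 change from WT to STAT3-/- (horizontal axis) of the 10 genes in Tc17 and in Tc1, with 95% limma intervals; filled points had an adjusted p under 0.05. In Tc17 the changes run from -0.88 for Stx11 to 1.51 for Sytl2, and in Tc1 all 10 intervals span 0.

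In Tc1 cells none of the 10 genes was called between genotypes (limma, all adjusted p = 0.998), against 0.0608% of all tested genes (0.0203% higher and 0.0406% lower, 6 genes in all), and 0 of the 10 had an unadjusted p under 0.05, as 370 tested genes did. The changes lay between -0.06 for Stx11 and 0.20 for Vamp7. The Lyst arrays of the genotypes did not overlap in Tc1, the only gene of the 10 for which this held, against 7.79% of all tested genes; its change was 0.19 ± 0.10 (SE, 95% interval -0.03 to 0.41). For Sytl2 the Tc1 interval ran from -0.16 to 0.36, below the whole of its Tc17 interval. With the technical arrays left out, 24 genes were called in Tc1 in place of 6, and none of them was among the 10.

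The difference between the genotype changes in Tc17 and in Tc1 was tested as an interaction. Sytl2 was the only 1 of the 10 genes called, against 6.85% of all tested genes (4.48% higher and 2.37% lower). Its change was 1.42 ± 0.16 (SE) larger in Tc17 (95% interval 1.05 to 1.78; limma, adjusted p = 0.00153), and it was called under all 22 settings. The next largest were Stx11 at -0.82 ± 0.26 (95% interval -1.41 to -0.23; adjusted p = 0.0966), Sytl1 at 0.45 ± 0.16 (0.132), Lyst at 0.42 ± 0.14 (0.103), Vamp7 at 0.36 ± 0.19 (0.279) and Rab27a at -0.35 ± 0.15 (0.189). For these 5 genes the difference between the fates did not pass the test as fitted. Stx11 was called under 7 of the 22 settings, among them without the Tc17 WT technical array (-0.92, adjusted p = 0.0397) and without Tc17 WT sample 2 (-1.06, adjusted p = 0.0480). Lyst was called once, with all technical arrays left out (0.41, adjusted p = 0.0495).

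Between fates in WT cells, 3 of the 10 genes were lower in Tc17 than in Tc1 (Sytl2, Lyst and Vamp7) and 1 was higher (Stx11), against 25.0% of all tested genes (18.0% lower and 7.01% higher). The arrays of 7 of the 10 did not overlap, against 40.8% of all tested genes. This comparison shares the Tc17 WT arrays with the genotype comparison in Tc17, so the opposite signs of the 4 genes in the 2 comparisons are not independent. Sytl2 fell by 2.40 ± 0.11 (SE) from Tc1 to Tc17, or 5.28-fold (95% interval -2.66 to -2.14; limma, adjusted p = 3.7e-06). Lyst fell by 1.61 ± 0.10, or 3.05-fold (adjusted p = 1.2e-05), and both were called under all 23 settings. Of all genes called, 28.0% were higher as deposited and 18.3% to 51.0% under the other scalings, and the median of all tested genes was -0.10.

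Stx11 was 0.77 ± 0.18 (SE) higher in Tc17 WT than in Tc1 WT, or 1.70-fold (limma, adjusted p = 0.0168). It was not called without Tc1 WT sample 1 (adjusted p = 0.0581), Tc1 WT sample 2 (0.0823) or Tc17 WT sample 1 (0.53, adjusted p = 0.0652). Vamp7 fell by 0.51 ± 0.14 (adjusted p = 0.0262). Its call was lost without Tc1 WT sample 1 (0.135), Tc1 WT sample 2 (0.0722) or Tc17 WT sample 2 (-0.37, 0.123), and without the filter (0.0545). Sytl1 (-0.36 ± 0.12, adjusted p = 0.0532) and Rab27a (0.25 ± 0.11, adjusted p = 0.116) were not called; Sytl1 was called under 6 of the 23 settings, among them without Tc1 STAT3-/- sample 1 (0.0421) or sample 2 (0.0419), and Rab27a under 2, both scalings. Sytl3 (-0.28), Stxbp2 (-0.16), Unc13d (0.08) and Vamp8 (0.17) were not called either. Without the Tc17 WT technical array the same 4 genes were called, with changes of -2.29 for Sytl2, -1.54 for Lyst, 0.87 for Stx11 (adjusted p = 0.00538) and -0.46 for Vamp7 (0.0260).

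**Figure D3:**
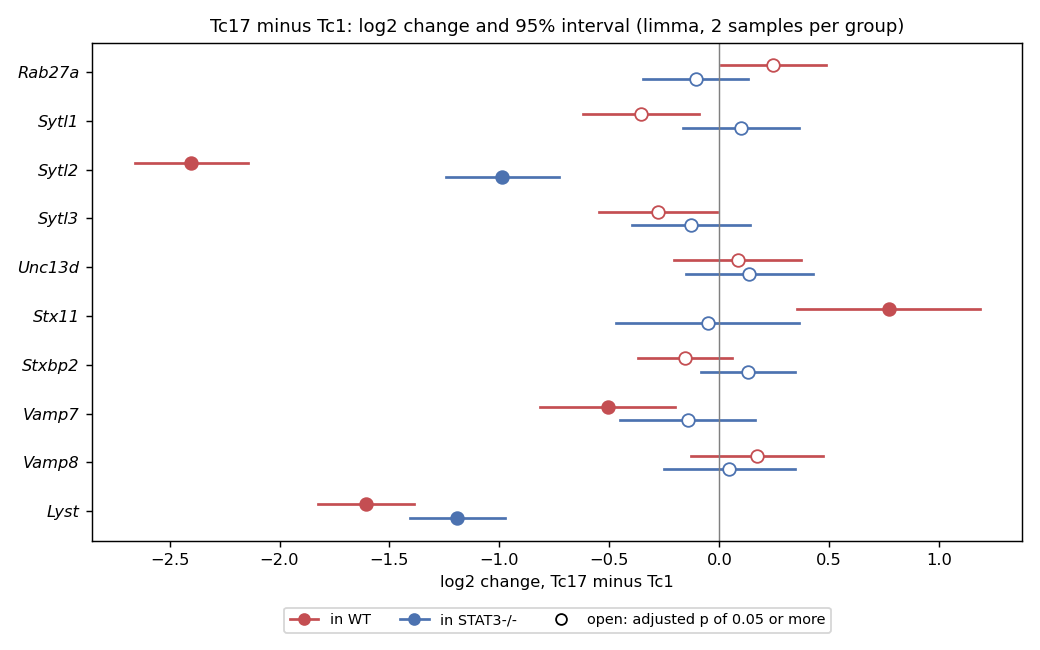
Log2 change from Tc1 to Tc17 (horizontal axis) of the 10 genes in WT and in STAT3-/- cells, with 95% limma intervals; filled points had an adjusted p under 0.05. Sytl2 and Lyst are lower in Tc17 in both genotypes, with changes of -2.40 and -1.61 in WT and of -0.99 and -1.19 in STAT3-/-.

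Without STAT3, 2 of the 10 genes still differed between fates, against 2.07% of all tested genes (1.01% lower and 1.05% higher). From Tc1 STAT3-/- to Tc17 STAT3-/- Sytl2 fell by 0.99 ± 0.11 (SE), or 1.98-fold (limma, adjusted p = 0.00247), and Lyst fell by 1.19 ± 0.10, or 2.28-fold (adjusted p = 0.00038). The other 8 genes had changes between -0.14 for Vamp7 and 0.14 for Unc13d and were not called. The arrays of 3 of the 10 genes did not overlap, against 16.4% of all tested genes. The size of the fall between fates differed between genotypes by the interaction given above, which was called for Sytl2 and not for Lyst.

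Tc17 STAT3-/- cells were also set against Tc1 WT cells. Against Tc1 WT, Sytl2 fell by 0.89 ± 0.11 (SE), or 1.85-fold (limma, adjusted p = 0.0036), and Lyst fell by 1.0 ± 0.10, or 2.0-fold (adjusted p = 0.00086), and these 2 of 10 compare with 2.26% of all tested genes called (0.953% lower and 1.31% higher). Without Tc17 STAT3-/- sample 2 the Sytl2 change was -0.81 and not called (adjusted p = 0.0551). The other 8 genes lay between -0.16 for Rab27a and 0.21 for Sytl1 and were not called. For Stx11, which fell in Tc17 STAT3-/- against Tc17 WT, the difference from Tc1 WT was -0.11, with a 95% interval from -0.52 to 0.31. For Vamp7 it was 0.06, with an interval from -0.25 to 0.36. The arrays of 7 of the 10 genes did not overlap, against 22.3% of all tested genes.

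Other genes of granule traffic were read from 4 further lists. Of 26 other SNAREs, SM proteins and priming factors 19 were tested. In Tc17 STAT3-/- against WT 4 fell and 1 rose, against 6.83% and 18.2% of all tested genes (25.1% in either direction). Their median change was -0.02 against 0.11 over all tested genes. Nsf, the ATPase that takes SNARE complexes apart, fell by 0.61 ± 0.11 (SE), from a group mean of 8.47 to 7.86 (limma, adjusted p = 0.00474). Unc13a, a priming factor related to Unc13d, fell by 0.57 ± 0.09, from 7.20 to 6.64 (adjusted p = 0.00328). Stx7, a SNARE of late endosomes, fell by 0.55 ± 0.11, from 7.33 to 6.78 (adjusted p = 0.00797), and was not called without Tc17 STAT3-/- sample 1 (0.0643) or sample 2 (0.0519). In Tc1 WT the means were 7.82 for Nsf, 6.68 for Unc13a and 6.78 for Stx7. All 3 were higher in Tc17 WT than in Tc1 WT, by 0.65, 0.52 and 0.55. These differences and the falls in Tc17 STAT3-/- share the Tc17 WT arrays, so their opposite signs are not independent. Without Tc1 WT sample 2 the Stx7 difference between fates was 0.44 and not called (adjusted p = 0.0599). Their interactions were not called (adjusted p = 0.0505 for Nsf, 0.0897 for Unc13a and 0.0776 for Stx7), though each passed under 4 to 10 of the 22 settings.

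Of 34 genes of granule biogenesis and sorting 29 were tested, and 5 rose and 0 fell in Tc17 STAT3-/-, with a median of 0.14. Over all tested genes 18.2% rose and 6.83% fell, with a median of 0.11, so this list lay near the rate of all genes. Hps4, a subunit of a complex that makes lysosome-related organelles, rose by 0.67 ± 0.12 (SE), from 5.65 to 6.31 (limma, adjusted p = 0.00544), and was not called without Tc17 STAT3-/- sample 2 (0.51, adjusted p = 0.0546). For the interaction too this list lay near the rate of all genes, which was 6.85%. The interaction was called for 2 of the 29 tested genes. It was 0.72 for Hps4 (limma, adjusted p = 0.0446), a call lost under 11 of 22 settings, with adjusted p up to 0.170, among them without any single sample other than Tc17 WT sample 1 or Tc17 STAT3-/- sample 1. It was 0.56 for Nbeal2, a gene of granule biogenesis in platelets, named after its values were seen (adjusted p = 0.0478), and this call was kept under 8 of 22 settings and lost without any single sample (adjusted p up to 0.183). Of 24 genes of granule movement along microtubules and actin 19 were tested, and 1 rose and 0 fell, with a median of 0.01. That gene was Rab8b (0.40, adjusted p = 0.0185), a GTPase of vesicle transport, which was named after its values were seen. Its call was lost with cyclic loess (0.0739), without the filter (0.0513) and without Tc17 WT sample 2 (0.0580), Tc17 STAT3-/- sample 1 (0.127) or sample 2 (0.0822). In Tc1 the Rab8b mean was 8.69 in WT and 8.88 in STAT3-/-. Its interaction of 0.21 was not called (limma, adjusted p = 0.379), nor was it under any of 22 settings. Of 8 genes for RAB27B and other RAB27 effectors only 2 passed the filter, Rph3al (-0.22) and Myo5a (-0.09), and neither was called. These 2 are named for being the only ones tested. In Tc1 0 of the 69 tested genes of these 4 lists were called between genotypes (limma), against 0.0608% of all tested genes. An unadjusted p under 0.05 was found for 1 of the 69 and for 370 of all 9862 tested genes.

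The cargo of the granules moved in both directions. Of 14 genes of granule contents 13 were tested, and 5 rose and 3 fell in Tc17 STAT3-/- against WT, with a median of 0.33. Over all tested genes 18.2% rose and 6.83% fell, with a median of 0.11. Fasl, the death ligand, rose by 1.94 ± 0.09 (SE), Nkg7, a granule membrane protein, by 1.00 ± 0.11, and Gzmb, the protease granzyme B, by 0.93 ± 0.09 (limma, adjusted p of 5.3e-06, 0.00047 and 0.00027), and all 3 were called under all 23 settings. Their interactions were called too, at 1.80 for Fasl (adjusted p = 0.00020), 0.98 for Nkg7 (0.00931) and 0.99 for Gzmb (0.00378); that of Nkg7 was not without Tc17 STAT3-/- sample 2 (0.0536). Prf1, the pore-forming protein, fell by 0.61 ± 0.13, from 8.72 to 8.10 (adjusted p = 0.00857), and was not called without Tc17 STAT3-/- sample 1 (0.0582) or sample 2 (0.0588). Srgn, the granule proteoglycan, fell by 0.31 ± 0.09 (adjusted p = 0.0364), a call lost under 9 of 23 settings, with adjusted p up to 0.174, among them without either Tc1 WT sample, Tc17 WT sample 2 or either Tc17 STAT3-/- sample. The granzyme genes Gzmk (0.66, adjusted p = 0.0221) and Gzmc (0.57, adjusted p = 0.00853) rose. Gzmc was not called without Tc17 STAT3-/- sample 1 (0.46, adjusted p = 0.0838). Gzmk was not called without the Tc17 WT technical array (0.42, 0.0517), without Tc17 WT sample 2 (0.45, 0.115) or without Tc17 STAT3-/- sample 1 (0.0696) or sample 2 (0.134). In Tc1 0 of the 13 were called (limma), against 0.0608% of all tested genes. An unadjusted p under 0.05 was found for 2 of the 13, Gzmk and Prf1, and for 370 of all 9862 tested genes. From WT to STAT3-/- in Tc1 the group mean of Gzmk went from 5.60 to 6.34 and that of Prf1 from 9.62 to 9.22. Of the 13, 3 were called for the interaction, against 6.85% of all tested genes. It was not called for Gzmk (-0.08; limma, adjusted p = 0.852), Prf1 (-0.21, 0.493), Gzmc (0.60, 0.0660) or Srgn (-0.34, 0.148).

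**Figure D4:**
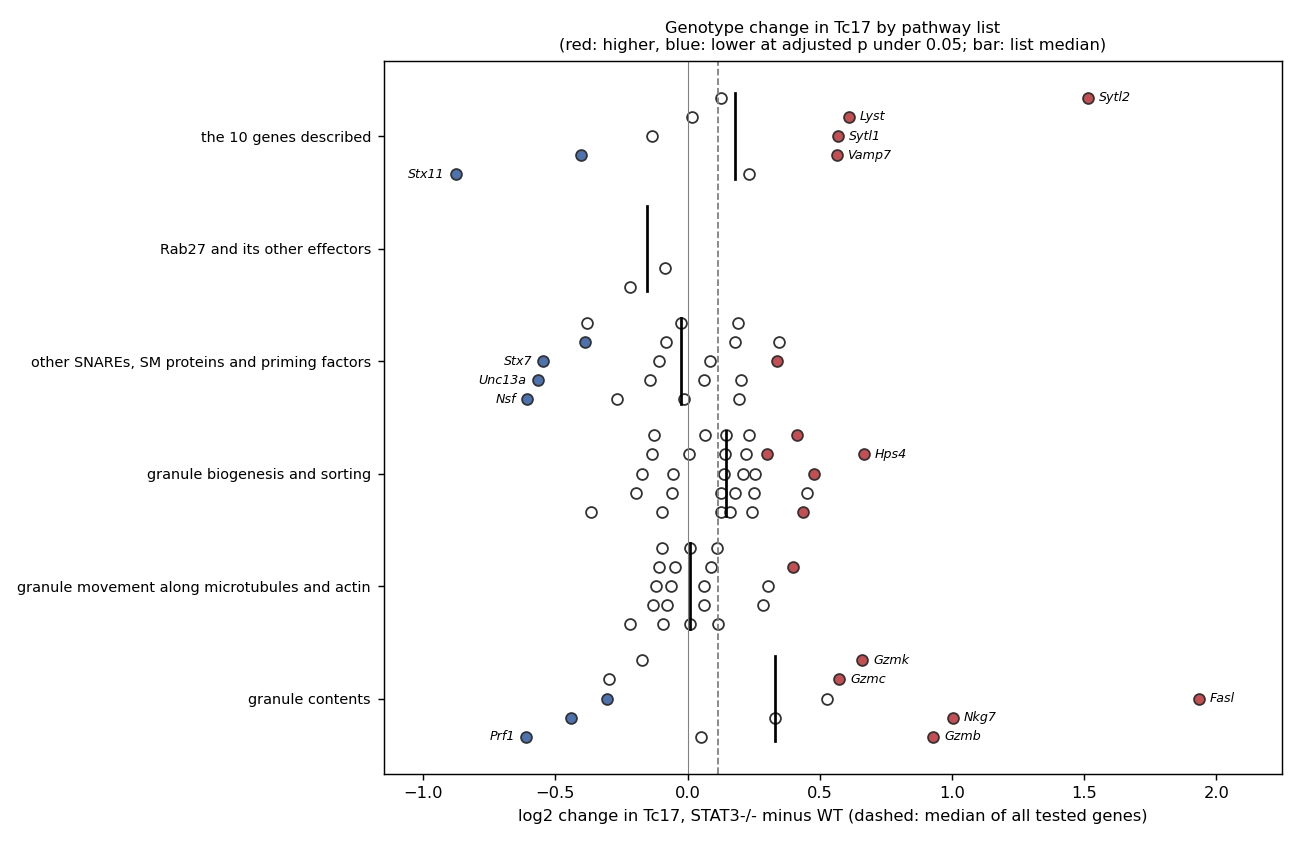
Log2 change from WT to STAT3-/- in Tc17 (horizontal axis) for each tested gene of the 6 lists (vertical axis); red points were called higher, blue lower, open points not called, bars are list medians and the dashed line is the median of all tested genes, 0.11. The list of 10 genes holds called changes in both directions, as the SNARE and granule contents lists do.

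By the span of their group means, Sytl2 and Lyst varied most among the 10 genes (2.50 and 1.80), followed by Stx11 (0.88), Vamp7 (0.71), Sytl1 (0.57) and Rab27a (0.40). The genes whose values followed Sytl2 most closely over the 8 samples were Ms4a4b (r = 0.993), Igf2r (0.992) and Mef2a (0.992), with r of 0.987, 0.974 and 0.982 over the 12 arrays. Those nearest to Lyst were Serpinb6b (0.993), Gm17767 (0.992) and Epsti1 (0.991), with 0.981, 0.982 and 0.983 over the arrays. Sytl2 and Lyst themselves correlated at 0.963 over the 8 samples, and Rab27a and Stx11 at 0.923. All of these points share the same 4 groups of 2 samples, so the coefficients largely restate the group means.

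Some genes listed as markers of other cell types moved with the genotype in Tc17, while most of the listed markers on the array were below the filter. Of 8 B cell markers 7 were on the array and 2 passed the filter, and Ighm (1.77) and Cd79b (0.78) rose in Tc17 STAT3-/-; Ighm rose by 0.52 when probe sets of a gene were averaged. Ms4a1, Cd79a, Pax5, Cd22 and Blk were below the filter in every group. The summed linear level of the 7 was 1552 to 1567 in Tc1 WT, 1498 to 1880 in Tc1 STAT3-/-, 699 to 738 in Tc17 WT and 1997 to 2396 in Tc17 STAT3-/-. Ighm made up most of this sum in each group, with log2 group means of 9.09 to 10.86 against 6.71 to 7.56 for Cd79b. Of 10 myeloid markers Cd68 alone passed the filter; it fell by 1.12 in Tc17 STAT3-/-, and the summed level was 211 to 217 there and 299 to 355 in the other groups. Of 7 NK cell markers 5 were on the array and Eomes alone passed; it rose by 0.67, a call lost without Tc17 WT sample 2 (0.0953), Tc17 STAT3-/- sample 1 (0.121) or sample 2 (0.0536), and the summed level was 81.9 to 85.9 in Tc17 WT and 92.1 to 144 elsewhere. The Eomes group means were 6.28 in Tc1 WT, 6.28 in Tc1 STAT3-/-, 5.37 in Tc17 STAT3-/- and 4.70, below the filter level, in Tc17 WT. Its interaction was not called (limma, adjusted p = 0.120), though it passed under 4 of 22 settings. The other 4 NK cell markers on the array, Ncr1, Klrb1c, Fcgr3 and Tyrobp, were below the filter in every group. Of 10 mast cell, basophil and platelet markers 9 were on the array. Kit rose (0.88) and Gp9 was not called (-0.42). The summed level of the 9 was 707 to 875 in Tc17 STAT3-/- and 370 to 710 elsewhere. Among 3 CD4 T cell markers Cd4 (-0.24) and Zbtb7b (0.08) were not called, and among 6 erythroid markers, 2 of them on the array, Epor (-0.29) was not. The part of these cell types in the changes of the 10 genes was not tested.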

How the data were processed

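The deposited log2 values, 1 per probe set and array, were made by the authors with RMA and Partek, per the submitters' processing notes; their versions and order are not given in sources used here. RMA compresses differences near background. That the scale is log2 follows from the range of values, with a maximum of 13.3. The number of arrays limits the precision.

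Of 41345 probe sets, 23521 have 1 gene symbol in the platform annotation and were used, 1814 have several and 16010 none; where a gene had several, the probe set of highest mean stood for it. A gene entered the test when a group mean was 5 or more, which left 9862 of 22180. Group means of the 8 samples were estimated in R 4.3.3 using limma 3.58.1 (lmFit, contrasts.fit and eBayes; 4 residual and 4.87 prior degrees of freedom) for 6 contrasts, with Benjamini-Hochberg adjustment over all tested genes and two-sided p-values. The fit was tested on simulated data. No columns were identical. Over tested genes, biological arrays of a group differed with an SD of 0.144 to 0.192, and the technical array differed from biological array 2 with an SD of 0.209 to 0.352. Which biological sample a technical array repeats is not stated.

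The members and lists were chosen with earlier results of these data known. The text names all 10 members, Stat3, Prf1, Gzmb, Nkg7 and Srgn, marker genes that passed the filter, the 3 genes most like each of 2 members, and, per other list, up to 6 genes called in Tc17 with a change of at least 0.5; genes outside this rule are said to be so. Promoter sequences are those of RefSeq (GRCm38.p6), matched by symbol. Alternatives covered the technical array, scaling, the filter, probe sets, eBayes options, the replicate block, the groups in the fit and each sample left out. The R package data.table, release 1.17.8, handled tables, and matplotlib 3.10.9 in Python 3.11.15 drew the figures.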

Additional observations from a re-analysis of the deposited data

Results flagged for a closer look

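The genotype change of Sytl2 differed between the fates by the interaction term. Sytl2 was 1.51 higher in STAT3-/- than in WT cells in Tc17 and 0.10 higher in Tc1, a difference of 1.42 ± 0.16 (SE; limma, adjusted p = 0.00153). The difference was 1.30 to 1.57 over 22 settings, with an adjusted p of at most 0.0112. Sytl2 is near the filter in Tc17 WT, where its 3 arrays read 4.28 to 4.72. Groups of 2 samples were too small to look for single outlying samples.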

How the results depend on the processing

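Of the results on the 10 genes under all alternatives, 1299 kept their direction and their side of the threshold, 18 fell below it, 17 passed it, 36 uncalled changes altered sign and 0 called ones did. Genes called in Tc1 between genotypes numbered 6, and 16 with the technical array joined to biological array 1, 24 with it left out, 13 with it as a sample of its own, 14 without that of Tc17 WT and 15 with the replicate block. Genes called for the interaction numbered 676, and 1259 with the technical arrays left out, 384 without the filter and 1018 with the replicate block. Of the 10 genes, 1 was called for the interaction, and 2 with the technical array joined to biological array 1, without that of Tc17 WT, with the median of tested genes subtracted, with quantile normalization or with the replicate block, and 3 with all technical arrays left out. Genes called between fates numbered 2468 in WT, and 1479 with only those 2 groups in the fit, and 204 in STAT3-/-, and 409 without technical arrays. Tc17 STAT3-/- against Tc1 WT gave 223, and 382 without them. Of the other pathway genes 19 were called in Tc17, and 12 without the filter; the cause of these shifts was not tested.

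With each sample left out in turn, the genes called ranged from 949 to 3192 for genotype in Tc17 (10-gene list 3 to 6), 4 to 7 in Tc1 (0), 244 to 1553 for the interaction (1 to 2), 1098 to 3242 between fates in WT (2 to 5), 65 to 247 in STAT3-/- (2) and 89 to 269 for Tc17 STAT3-/- against Tc1 WT (1 to 2), and other pathway genes from 6 to 30. The lone sample of a group is then assumed to vary like the other groups.

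The labels do not say that a replicate number marks a shared culture. Deviations of same-numbered samples correlated at 0.0980 to 0.455 between groups, and at 0.000364 to 0.172 over biological arrays alone. The highest value in both was that of Tc1 WT with Tc1 STAT3-/-. Tc17 WT with Tc17 STAT3-/- gave 0.0988 and 0.0291. These values do not settle whether same-numbered samples shared a culture, and the numbers were not taken as pairs. With the replicate block 3056 genes were called in place of 2473 for genotype in Tc17, and the Stx11 interaction passed (adjusted p = 0.0147).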
